A study of Mus musculus with 7 samples.

Results

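The interferon response genes described here are 37 mouse genes that textbooks list as induced by type I or type II interferon. They were chosen by name after the log2 signals of these same arrays had been seen, so their levels by population are a description and carry no test of their own. All 37 were on the array, through 48 probes, and all 37 were among the 19758 genes that passed a filter on low signal, of 34947 names in all. To pass, a probe needed a mark of well above background from the scanner software on 3 or more of the 7 arrays, and each gene took the value of its brightest passing probe. Of the 37 probes used, 33 were well above background on all 7 arrays and 4 were not, and none was saturated.

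The study addressed the origin of muscle-forming precursor cells in the dermis, beside satellite cells, which are the stem cells of skeletal muscle. RNA from 7 mouse cell populations was measured with Agilent arrays in a single colour, 1 array per population. The Sdc4+ group held Myf5SOR+ cells (line B6.129S4-Myf5tm3(cre)Sor /J, in which Cre is knocked into the myogenic gene Myf5), Cspg4- cells (line B6,FVB-Tg(Cspg4-cre)1Akik/J, whose Cre transgene is driven by Cspg4, a pericyte proteoglycan gene) and cells of Crl:CD1(ICR) mice, an outbred stock with no Cre named. The Sdc4- group held B195AP+ cells (line B195AP-Cre, whose driver the labels do not explain), Cspg4- cells and CD1 cells, and the last array held Cspg4+ cells of the same Cspg4-cre line with no Sdc4 label. Sdc4 encodes the surface proteoglycan syndecan-4. Ages, treatments and the tissue digested are not given in the sources used here, and no group is labelled as treated with interferon or infected. RNA from 8 to 10 animals stood behind each population, in amounts of 10 to 200 ng. Each array is 1 pooled population and the arrays of an Sdc4 group come from different mouse lines, so the spread within a group includes the line, and the number of arrays limits the precision.

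Interferons are secreted signals that cells release when they sense foreign or misplaced nucleic acid. Type I interferon binds the receptor Ifnar1 and Ifnar2, whose kinases Jak1 and Tyk2 phosphorylate Stat2, which joins Irf9 in a complex that binds interferon-stimulated response elements (ISRE) before target genes. Type II interferon acts through gamma-activated sites (GAS). The target genes encode antiviral effectors, sensors and regulators, and many are expressed at low levels in unstimulated fibroblasts and other tissue cells.

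The promoters bear on genes that move together, so they were searched for both elements. RefSeq promoters (build GRCm38.p6, 250 bases before to 50 after each start) were listed for 27 of the 37 members, 31 promoters in all. The search used the 250 bases before the start and the letters GAAANNGAAA for the ISRE on both strands, and TTCNNNGAA, which reads alike on both strands, for the GAS. An ISRE match lay before 12 of the 27 members (12 of the 31 promoters), against 2.98% of all 32851 listed promoters. A GAS match lay before 6 of the 27 (Bst2, Ifit2, Igtp, Irf1, Oas1a and Psmb8), against 7.02% of all promoters, and in the Bst2 promoter the 2 motifs overlapped. By role, all 4 listed GTPase promoters (Gbp2, Gbp3, Irgm1 and Igtp) held an ISRE match, and none of the 3 antigen-processing promoters did. Isg15 had 3 overlapping matches, the nearest beginning 66 bases before the start of the gene. The stretches below show the matches before 4 members of different roles that varied widely across the arrays. Each runs 5′ to 3′ in the direction of the gene, and capitals mark the ISRE match, which reads TTTC where it lies on the other strand.
Oas3, chr5:120777665-120777764, minus strand: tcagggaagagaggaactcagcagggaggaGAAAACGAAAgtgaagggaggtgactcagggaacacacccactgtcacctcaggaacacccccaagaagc
Rsad2, chr12:26456503-26456602, minus strand: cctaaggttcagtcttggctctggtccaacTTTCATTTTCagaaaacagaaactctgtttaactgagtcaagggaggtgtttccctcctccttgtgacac
Ifit3, chr19:34583343-34583476, plus strand: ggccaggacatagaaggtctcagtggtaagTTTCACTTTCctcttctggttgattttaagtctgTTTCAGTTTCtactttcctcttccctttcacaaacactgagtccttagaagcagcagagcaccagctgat
Gbp3, chr3:142559969-142560043, plus strand: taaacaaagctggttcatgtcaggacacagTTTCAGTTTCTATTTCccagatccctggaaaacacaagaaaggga
Oas3 has a single match 75 bases before its start and Rsad2 a single match 120 bases before. Ifit3 has separate matches at 156 and 122 bases, and Gbp3 has overlapping matches at 45 and 39 bases. A match is a stretch of letters and not a measured binding site.

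Several members are neighbours. Of 35 members with a gene model in the RefSeq table, 13 fell into 6 runs of genes with at most 2 protein-coding genes between members: Rsad2 and Cmpk2 on chromosome 12, Psmb9, Tap1 and Psmb8 on chromosome 17, Ifit2 and Ifit3 on chromosome 19, Gbp3 and Gbp2 on chromosome 3, and Oasl2 with Oasl1 and Oas2 with Oas3 on chromosome 5. Psmb9 and Tap1 point away from each other with 226 bases between their starts (GRCm38.p6), so their promoter windows overlap. Neighbouring members are not independent observations.

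The populations sorted by mouse line and not by Sdc4. Signals are given as log2 intensity relative to the 75th percentile of the same array. The median level of the members was 0.456 on the CD1 Sdc4+ array and 0.32 on the CD1 Sdc4- array, 1.06 on the Myf5SOR+ array, 2.24, 2.11 and 2.61 on the 3 arrays of the Cspg4 line (Cspg4- Sdc4+, Cspg4- Sdc4- and Cspg4+), and 2.61 on the B195AP+ array. When each gene was first set against its own mean over the arrays, the median deviation was -1.30 and -1.40 in CD1, -0.54 in Myf5SOR+, 0.73, 0.62 and 0.92 in the Cspg4 line and 1.01 in B195AP+. In bulk RNA of this kind, fewer cells that carry a transcript and less of it per cell cannot be told apart.

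**Figure D1:**
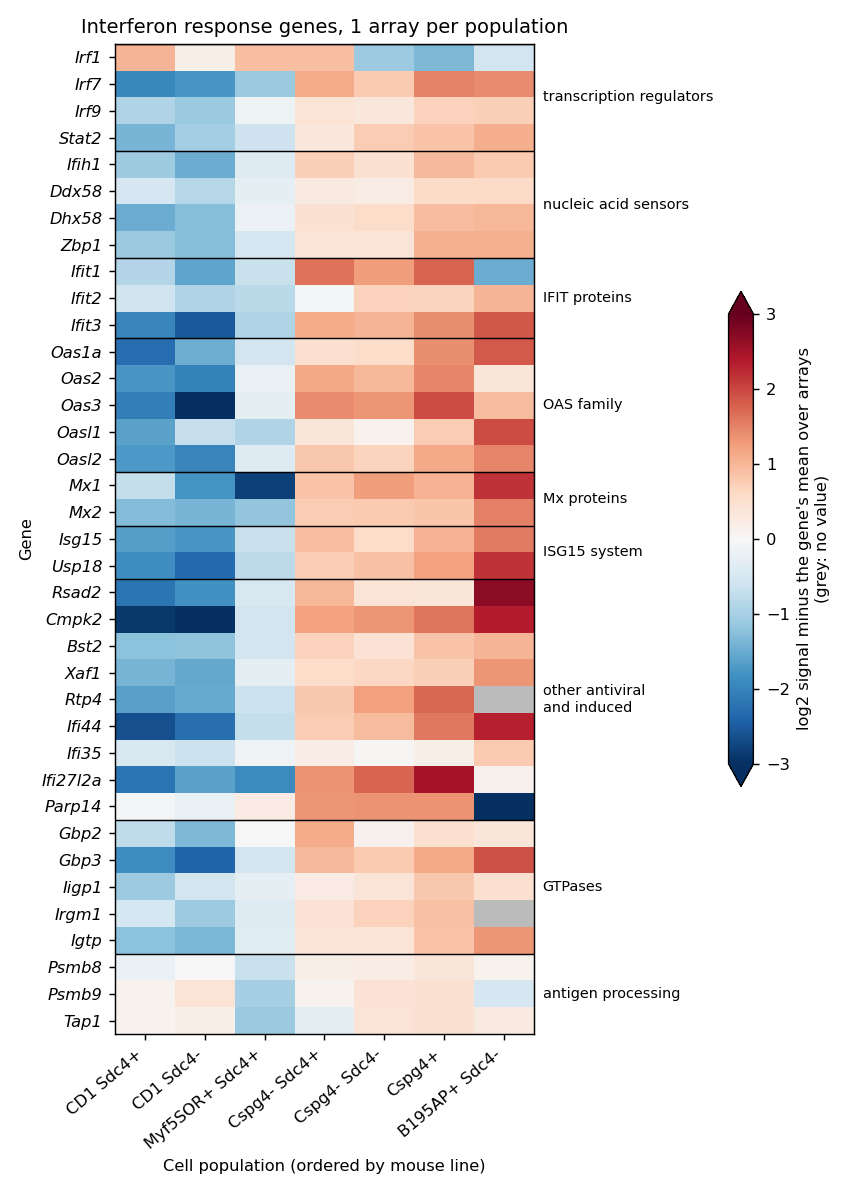
Log2 signal of each of the 37 interferon response genes minus its mean over the arrays, by population (columns, ordered by mouse line) and role (rows); grey marks Rtp4 and Irgm1 on the B195AP+ array, which have no value. The CD1 columns are mostly blue and the Cspg4 columns mostly red, and Irf1, Psmb8, Psmb9 and Tap1 do not share this pattern.

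**Figure D2:**
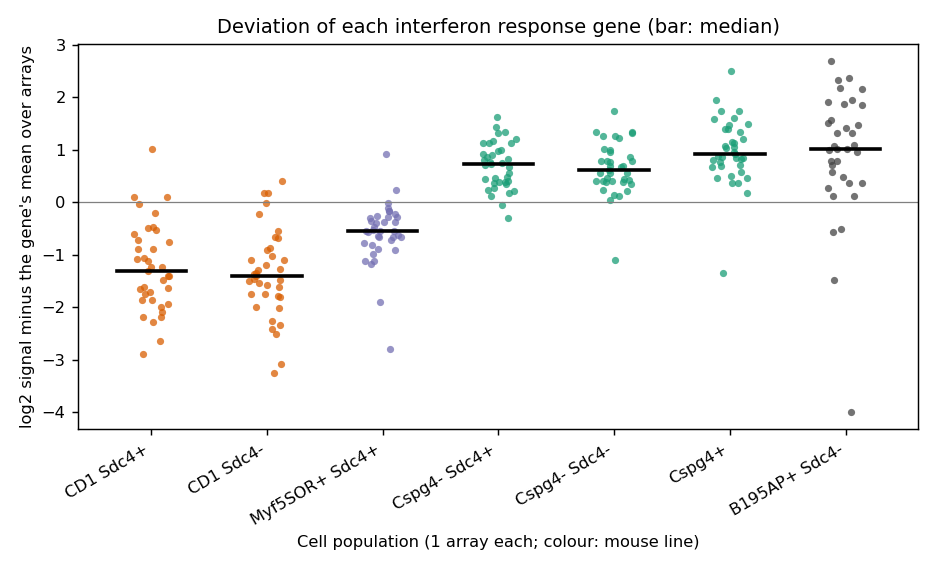
Each point is 1 gene's log2 signal minus its mean over the arrays, and the bar is the median over the 37 genes (35 on the B195AP+ array). The medians run from -1.40 on the CD1 Sdc4- array to 1.01 on the B195AP+ array, and arrays of the same line lie side by side.

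CD1 cells had lower signals of nearly every member than Cspg4- cells of the same Sdc4 fraction. Among Sdc4+ cells 35 of 37 members were lower in CD1, 29 of them at least 2-fold, with a median log2 difference of -1.94 (all genes tested: -0.07). Of all genes, 11077 of 19753 were lower there, 1121 of them at least 2-fold. Among Sdc4- cells 36 of 37 were lower, 30 at least 2-fold, with a median of -1.95 (all genes: -0.01). Here 10192 of 19758 genes were lower, 874 of them at least 2-fold. Setting the members at background in CD1 (2 in the Sdc4+ and 3 in the Sdc4- comparison) at their bound left both medians at these values. In both fractions at once 27 of the 37 were at least 2-fold lower in CD1, where the background over all genes was 1.91%, and 0 were at least 2-fold higher, where it was 1.77%. Both CD1 arrays lay below the 5 other arrays for 27 of the 37 (background 15.4%). Among the 27, Rtp4 and Irgm1 had no value on B195AP+ and were compared with the remaining arrays only. The members were chosen on signals of these arrays, so nothing is read from these shares. Each of these comparisons sets 1 array against 1 array and has no replicate check; an additive limma fit over the 4 arrays, with 1 residual degree of freedom, called 14 of 19758 genes at a limma adjusted p under 0.05 (0.0709%), among them 1 member, Cmpk2, from which likewise nothing is read. Over 8 alternatives that count of genes ran from 13 to 1935, the highest with normexp background correction.

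**Figure D3:**
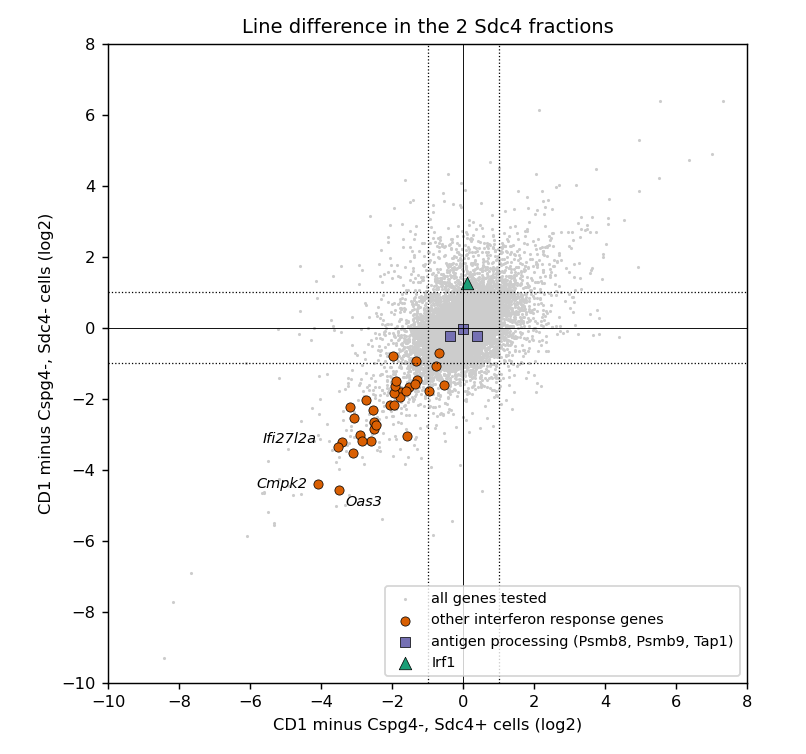
Log2 difference CD1 minus Cspg4- in Sdc4+ cells (horizontal) and in Sdc4- cells (vertical) for all genes tested (grey) and the 37 interferon response genes; dotted lines mark 2-fold. Most interferon genes lie in the lower left, with 27 past 2-fold on both axes, while Irf1 and the 3 antigen-processing genes lie near 0 or above on the horizontal axis.

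Transcription regulators came first in the pathway. Irf7, the factor that amplifies interferon production (probe at chromosome 7, 148450664 to 148451014, in mm9, the build of the files), was at -0.82 on the CD1 Sdc4+ array, -0.63 on CD1 Sdc4-, 0.0032 on Myf5SOR+, 2.24, 1.90 and 2.61 on the Cspg4- Sdc4+, Cspg4- Sdc4- and Cspg4+ arrays, and 2.54 on B195AP+. The CD1 arrays were lowest, Myf5SOR+ lay between, and no array of the Cspg4 line reached down to it. The 3 Cspg4 arrays averaged 2.25 ± 0.35 (SD, n = 3), and CD1 was 8.36-fold lower than Cspg4- cells in the Sdc4+ and 5.78-fold in the Sdc4- fraction. Stat2, a subunit of the ISRE-binding complex (chromosome 10, 127729834 to 127729893), was at 1.07 and 1.44 in CD1 (Sdc4+ and Sdc4-), 1.84 in Myf5SOR+, 2.81, 3.23 and 3.32 in the Cspg4 line and 3.55 in B195AP+. It followed the same order, with line differences of -1.74 and -1.79. Irf9, the DNA-binding subunit of that complex, had differences of -1.31 and -1.46.

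Irf1 was the exception among the regulators. It encodes a factor that type II interferon and inflammatory signals induce early. Of its 2 listed promoters 1 held a GAS match, and neither held an ISRE match. The listed promoters of Irf7 and Irf9 held no ISRE match either, and a part of the motifs in these levels was not tested. The Irf1 probe (chromosome 11, 53590746 to 53590805) was at 5.78 on the CD1 Sdc4+ array, 5.68 on both Myf5SOR+ and Cspg4- Sdc4+, 4.95 on CD1 Sdc4-, 4.20 on B195AP+, 3.68 on Cspg4- Sdc4- and 3.42 on Cspg4+. The 3 Sdc4+ arrays lay close together and above every other array. CD1 was level with Cspg4- in the Sdc4+ fraction (0.10) and was 2.41-fold higher in the Sdc4- fraction.

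Sensors of viral RNA and DNA shared the line pattern. Ifih1 (MDA5, a sensor of long double-stranded RNA; chromosome 2, 62435507 to 62435566) was at 0.33 and -0.089 in CD1, 1.01 in Myf5SOR+, 2.11, 1.86 and 2.36 in the Cspg4 line and 2.19 in B195AP+. Dhx58 (LGP2, a regulator of the RNA sensors; chromosome 11, 100556271 to 100556330) was at -1.25 and -1.05 in CD1, 0.055 in Myf5SOR+, 0.69, 0.79 and 1.15 in the Cspg4 line and 1.22 in B195AP+. Zbp1, a sensor of left-handed nucleic acid (chromosome 2, 173039307 to 173039366), was at 0.46 and 0.30 in CD1, 1.06 in Myf5SOR+, 1.97 on both Cspg4- arrays, 2.64 on Cspg4+ and 2.66 in B195AP+. Both CD1 arrays were the lowest for all 4 sensors. Ddx58 (RIG-I) had the smallest line differences of the 4, -0.76 and -1.08, and its other probe gave -1.04 and -1.003.

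The IFIT proteins bind viral RNA ends. Ifit3 (chromosome 19, 34663105 to 34663164) was at -1.25 and -1.77 in CD1, -0.17 in Myf5SOR+, 1.86, 1.76 and 2.13 in the Cspg4 line and 2.61 in B195AP+. CD1 was 8.66-fold lower than Cspg4- in the Sdc4+ fraction and 11.6-fold in the Sdc4- fraction. Its close paralog Ifit3b, which is no member, had differences of -2.73 in both fractions; probes of such near copies can cross-hybridise. Ifit1 (chromosome 19, 34723796 to 34723855) was at -1.23 and -1.92 in CD1, -1.01 in Myf5SOR+, 1.28, 0.92 and 1.40 in the Cspg4 line and -1.82 in B195AP+, where its spot lay in a streaked region of the array described further on. Ifit2 (chromosome 19, 34650244 to 34650303) varied least of the 3, at -1.74 and -2.05 in CD1, -1.96 in Myf5SOR+, -1.19, -0.45 and -0.46 in the Cspg4 line and -0.13 in B195AP+. For Ifit2 the Myf5SOR+ array lay among the CD1 arrays.

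The oligoadenylate synthetases make the messenger that activates the antiviral nuclease RNase L. Oas3 (chromosome 5, 121203598 to 121203657) has the ISRE match printed above. It was not well above background on either CD1 array (-4.70 and -5.87), and was at -2.92 in Myf5SOR+, -1.19, -1.30 and -0.67 in the Cspg4 line and -1.67 in B195AP+. Against the lowest signal that counts as above background, it was at least 8.45-fold lower in CD1 than in Cspg4- cells of the Sdc4+ and at least 6.22-fold lower in the Sdc4- fraction. Oas1a (chromosome 5, 121346735 to 121346794) was at 0.97 and 1.78 in CD1, 2.70 in Myf5SOR+, 3.72, 3.81 and 4.64 in the Cspg4 line and 5.10 in B195AP+. Oasl1 (chromosome 5, 115387861 to 115387920) was at 1.05 and 1.97 in CD1, 1.77 in Myf5SOR+, 3.02, 2.77 and 3.42 in the Cspg4 line and 4.62 in B195AP+. Its difference was smaller in the Sdc4- fraction (-0.80) than in the Sdc4+ fraction (-1.97). Oas2 (-2.91 and -3.03) and Oasl2 (-2.52 and -2.66) had like differences in both fractions.

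The Mx proteins are GTPases that trap viral capsids. Mx2 (chromosome 16, 97782327 to 97782386) was at -1.33 and -1.43 in CD1, -1.21 in Myf5SOR+, 0.73, 0.75 and 0.79 in the Cspg4 line (0.76 ± 0.032, SD, n = 3) and 1.48 in B195AP+. Mx1 (chromosome 16, 97668644 to 97668703) was at -3.20 in CD1 Sdc4+, -1.63, -1.22 and -1.45 in the Cspg4 line and -0.32 in B195AP+, and was not well above background in CD1 Sdc4- (-4.27) or Myf5SOR+ (-5.28). Myf5SOR+ was level with CD1 for Mx2 and no level above background was measured there for Mx1.

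Isg15, a ubiquitin-like protein attached to other proteins in the response, was measured by a probe at chromosome 4, 155573649 to 155573708. It was at 3.51 and 3.41 in CD1, 4.49 in Myf5SOR+, 6.06, 5.71 and 6.21 in the Cspg4 line (5.99 ± 0.26, SD, n = 3) and 6.73 in B195AP+. CD1 was 5.86-fold and 4.92-fold lower than Cspg4- cells, and a second Isg15 probe gave log2 differences of -2.56 and -2.40 against -2.55 and -2.30. Usp18, the protease that removes Isg15 and dampens receptor signalling (chromosome 6, 121220874 to 121220933), was at 0.033 and -0.43 in CD1, 1.12 in Myf5SOR+, 2.63, 2.77 and 3.11 in the Cspg4 line and 4.07 in B195AP+. Both genes had the same order of lines, with no overlap between CD1, Myf5SOR+ and the Cspg4 arrays.

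Other antiviral and induced genes mostly shared the line order. Cmpk2, a mitochondrial nucleotide kinase gene next to Rsad2 (chromosome 12, 27162935 to 27162994), was not well above background on the CD1 arrays (-4.07 and -4.26) and was at -1.73 in Myf5SOR+, 0.012, 0.15 and 0.43 in the Cspg4 line and 1.17 in B195AP+. By this probe it was at least 16.9-fold lower in CD1 in both fractions. The additive fit, which took the CD1 values at background, gave -4.25 (SE 0.201, limma adjusted p = 0.0489). A second Cmpk2 probe, well above background on all 7 arrays, gave smaller differences of -2.25 and -2.46, so the bound does not hold for both probes. Ifi44 (chromosome 3, 151394035 to 151394094) was at -2.72 and -2.34 in CD1, -0.79 in Myf5SOR+, 0.68, 0.88 and 1.51 in the Cspg4 line and 2.26 in B195AP+, 10.6-fold and 9.32-fold lower in CD1 than in Cspg4- cells. Both had the line order of Isg15. Ifi27l2a (-3.54 and -3.34), Rsad2 or viperin, an antiviral enzyme (-3.18 and -2.23), Rtp4 (-2.44 and -2.73), Xaf1 (-1.96 and -2.16) and Bst2 or tetherin (-1.91 and -1.64) also differed by line in both fractions. Parp14, an ADP-ribosyltransferase (chromosome 16, 35832992 to 35833051), was at 0.75 and 0.54 in CD1, 1.00 in Myf5SOR+ and between 2.09 and 2.11 on the 3 Cspg4 arrays, and not well above background in B195AP+ (-3.22), in the streaked region. Ifi35 had the smallest differences of this group, -0.69 and -0.70.

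The interferon-inducible GTPases attack the membranes around intracellular microbes. Gbp3 (chromosome 3, 142236032 to 142236091), whose promoter holds the ISRE matches nearest its start among those printed, was at -0.94 and -1.48 in CD1, 0.39 in Myf5SOR+, 1.91, 1.72 and 2.07 in the Cspg4 line and 2.85 in B195AP+. Gbp2 (chromosome 3, 142300719 to 142300778) was at 1.41 and 0.81 in CD1, 2.15 in Myf5SOR+, 3.29, 2.30 and 2.66 in the Cspg4 line and 2.54 in B195AP+. Igtp, also called Irgm3 (chromosome 11, 58020927 to 58020986), was at 0.32 and 0.17 in CD1, 1.18 in Myf5SOR+, 1.92, 1.96 and 2.39 in the Cspg4 line and 2.86 in B195AP+. Both CD1 arrays were the lowest for all 5 GTPases, for Irgm1 among the arrays other than B195AP+, where it had no value. By the probes used, Irgm1 (-0.97 and -1.78) and Iigp1 (-1.33 and -0.94) missed 2-fold in 1 of the fractions. Their second probes passed it in both by their measured values. These were -1.03 and -1.88 for Irgm1 and -2.14 and -3.41 for Iigp1, whose second probe was not well above background on the CD1 arrays.

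Antigen processing did not share the pattern. Psmb8 and Psmb9 encode immunoproteasome subunits, and Tap1 encodes a subunit of the peptide transporter. Psmb8 (chromosome 17, 34337771 to 34337830) was at 2.86 and 3.05 in CD1, 2.40 in Myf5SOR+, 3.23, 3.29 and 3.42 in the Cspg4 line and 3.17 in B195AP+. Psmb9 (chromosome 17, 34319174 to 34319233) was at 2.64 and 2.93 in CD1, 1.54 in Myf5SOR+, 2.65, 2.96 and 3.002 in the Cspg4 line and 2.02 in B195AP+. Tap1 (chromosome 17, 34330854 to 34330913) was at 0.35 and 0.41 in CD1, -0.86 in Myf5SOR+, -0.050, 0.65 and 0.70 in the Cspg4 line and 0.51 in B195AP+. All 3 were lowest on the Myf5SOR+ array, and their CD1 differences lay between -0.37 and 0.40 in the Sdc4+ and between -0.24 and -0.02 in the Sdc4- fraction. The class I genes H2-K1 (5.31 in Myf5SOR+, 5.57 in B195AP+ and 6.81 to 7.38 elsewhere) and H2-D1 (5.10, 5.38 and 6.72 to 7.06), which are no members, were also lowest on Myf5SOR+ and not lower in CD1. On the B195AP+ array the spots of Psmb8, Tap1 and H2-K1 lay in the streaked region, and those of Psmb9 and H2-D1 lay outside it.

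**Figure D4:**
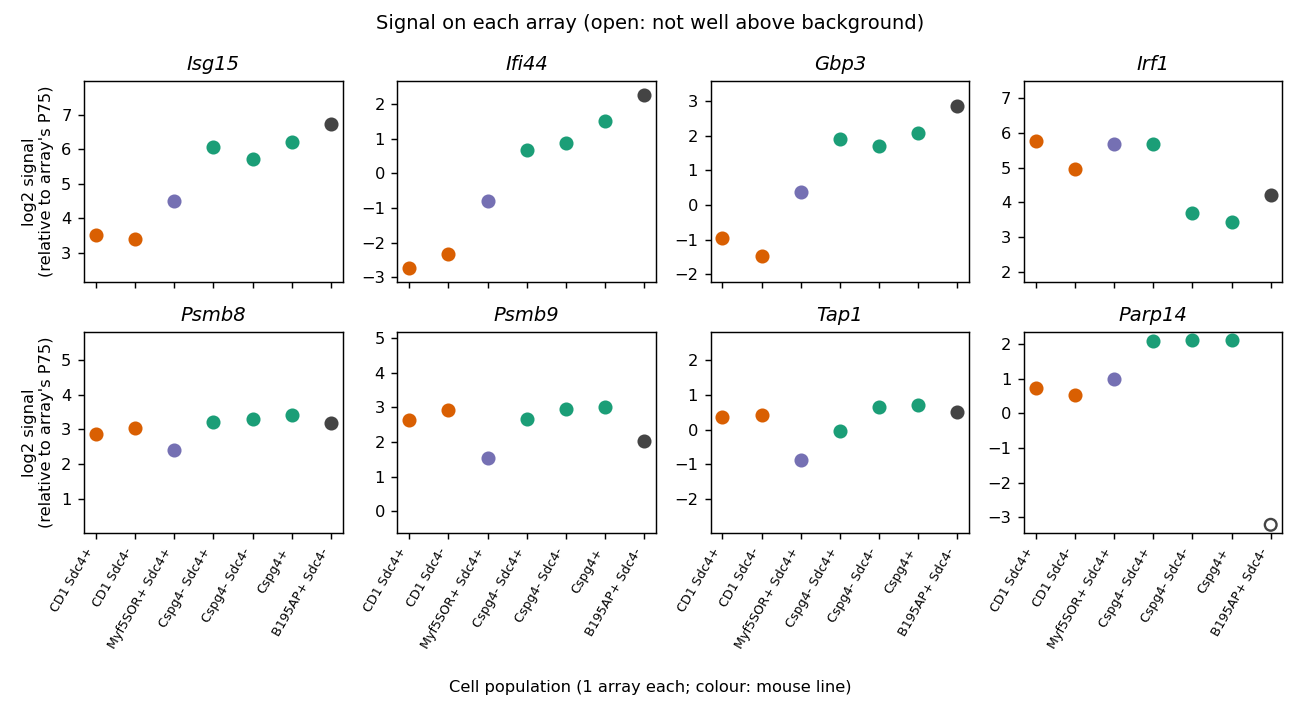
Log2 signal relative to each array's 75th percentile on each of the 7 arrays for 8 genes, coloured by mouse line, with panels of equal height in log2 units and an open circle where the probe was not well above background. Isg15, Ifi44 and Gbp3 climb from CD1 through Myf5SOR+ to the Cspg4 line and B195AP+, Irf1 is highest on the Sdc4+ arrays, and Psmb8, Psmb9 and Tap1 are lowest on Myf5SOR+.

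Members with an ISRE match had a median line difference of -2.53 in the Sdc4+ and -2.12 in the Sdc4- fraction (12 genes), those with a listed promoter and no match -1.31 and -1.46 (15 genes), and those with no promoter listed -2.00 and -2.46 (10 genes). The ranges overlapped: without a match, values reached -4.08 in the Sdc4+ fraction (Cmpk2), and with a match they reached up to -0.97 (Irgm1). Irf1, Psmb8, Psmb9 and Tap1 are all in the class with a promoter and no ISRE match, as are Irf7 and Irf9. In that class 7 of 15 genes were at least 2-fold lower in CD1 in both fractions. With a match it was 11 of 12, and with no promoter listed 9 of 10. A part of the motifs in these differences was not tested.

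Other measures differed with the line, and their part in these differences was not tested. The Y-linked genes Ddx3y and Eif2s3y were at background on both CD1 arrays (-6.33 to -5.86 and -6.50 to -6.05) and above it on the 5 others, and Xist was at 1.37 and 1.26 in CD1, 1.08 in B195AP+ and between -2.20 and -0.61 elsewhere. Both CD1 arrays lay in slide column 4 and no other array did, so line, stock, slide column and this difference in sex-linked genes cannot be told apart. The leukocyte gene Ptprc was at background on all 7 arrays. The summed linear level of 11 macrophage and myeloid markers was 41.2 to 41.4 in CD1, 45.4 to 58.1 in the Cspg4 line, 59.5 in Myf5SOR+ and 65.7 in B195AP+, with 5 to 8 of the 11 above background and Ptprc and Lyz2 at background on all 7 arrays. For 7 plasmacytoid dendritic markers it was 184 to 196 in CD1, 187 to 259 in the Cspg4 line, 244 in Myf5SOR+ and 80.1 in B195AP+, mostly from Siglech, with 4 or 5 above background. The summed level of 8 fibroblast markers, all above background on every array, was 738 to 928 in CD1 and 1102 to 1297 in the Cspg4 line. The satellite cell markers Pax7 and Myf5 were above background on none of the arrays and Myod1 on 1 (CD1 Sdc4-). The labelled link to satellite cells is therefore not visible in these defining genes. Of 8 listed satellite cell markers, 4 or 5 were above background on each array. The summed level of this list was 91.1 on Cspg4- Sdc4+ and 90.5 on CD1 Sdc4+. It was 40.5 on Cspg4- Sdc4- and 49.5 on CD1 Sdc4-, 47.0 on Cspg4+, 21.4 on Myf5SOR+ and lower still on B195AP+. The share of single genes in this sum was not tested. Sdc4, the gene of the label, was itself highest on Cspg4- Sdc4+ and CD1 Sdc4+ (6.29 and 6.35 in log2 units). Nothing about satellite cell content is therefore read from the sum. For 8 muscle fibre markers the sum was 15.7 on CD1 Sdc4- (6 above background) and 0.35 to 3.25 elsewhere. Sdc4 was higher in the Sdc4+ than the Sdc4- array of the Cspg4- cells (6.29 and 5.11) and of CD1 cells (6.35 and 5.28). It was at 3.80 on the Myf5SOR+ Sdc4+ array, below the Sdc4- arrays of those lines, and at 1.98 on B195AP+, so between lines its signal did not follow the label. The share of spots above background was 45.9% to 57.2% over the arrays, 48.6% to 50.8% in CD1 and 46.4% to 57.2% in the Cspg4 line.

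Between the 3 Sdc4+ and the 3 Sdc4- arrays the members differed little once the line was held. The median log2 difference, Sdc4+ minus Sdc4-, was -0.49 over the 37 genes (6 higher, 31 lower) and -0.06 over all genes (8578 higher, 11180 lower). Limma called 0 of 19758 genes (0%; smallest limma adjusted p = 0.222; 1719 genes at an unadjusted p under 0.05), and so 0 members. With line as a random block limma called 5 genes, none of them a member. Without the Myf5SOR+ and B195AP+ arrays, whose lines occur in 1 Sdc4 group each, the median was 0.09. The median also rested on single arrays: it was -1.343 without CD1 Sdc4-, -0.972 without Cspg4- Sdc4+, -0.271 without Cspg4- Sdc4-, -0.018 without CD1 Sdc4+ and 0.049 without B195AP+, and limma called 1 gene without CD1 Sdc4-. Row 1 of the slide held the 3 Sdc4+ arrays and row 2 the other arrays, so Sdc4 and slide row cannot be told apart.

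Within a line the members hardly followed Sdc4. In Cspg4- cells the median was -0.02 (17 higher, 20 lower, against 10028 and 9730 of all genes). There 1 member was at least 2-fold higher in Sdc4+ cells (Irf1, background 4.91%) and 0 at least 2-fold lower (background 3.85%). In CD1 cells the median was 0.16 (23 higher, 14 lower, against 8826 and 10927 of all genes). By their measured values 2 members, Mx1 and Oas3, were at least 2-fold higher (background 1.98%) and 0 at least 2-fold lower (background 2.65%). For Mx1, background on the Sdc4- array allows only a bound of at least 1.67-fold, and Oas3 was at background on both arrays. The groups of 3 arrays did not overlap for Irf1, higher in Sdc4+ (background 6.13%), and for Tap1, lower in Sdc4+ (background 9.72%), so neither count stands above its background.

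Irf1 had a mean of 5.72 ± 0.058 (SD, n = 3) in Sdc4+ populations and 4.27 ± 0.64 (SD, n = 3) in Sdc4- populations. The difference was 1.44 in log2 units (SE 0.331). It missed the threshold (limma adjusted p = 0.436, and 0.132 with line as a random block; range over the alternatives 0.132 to 0.925). The difference was 2.003 within Cspg4- cells and 0.84 within CD1, and it kept its direction in all 18 alternatives. Tap1 averaged -0.19 ± 0.62 and 0.52 ± 0.12 (difference -0.71, SE 0.328, limma adjusted p = 0.603), with -0.70 within Cspg4- cells and -0.06 within CD1.

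Cspg4+ cells came from the same line as the Cspg4- cells and had similar levels. Against the mean of both Cspg4- arrays the median difference was 0.34 (all genes 0.06), with 33 of 37 members higher, against 11630 of 19758 genes. No member was at least 2-fold higher (background 3.78%). The widest were Ifi27l2a (0.96) and Oas1a (0.88), and Irf1 was at least 2-fold lower (-1.26; background 2.48%). The Cspg4+ array had the highest share of spots above background (57.2%) and the highest median signal (21.5, against 9.14 to 16.2 on the others).

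Myf5SOR+ cells lay between CD1 and the Cspg4 line. For 29 of the 37 members the Myf5SOR+ signal was above both CD1 arrays and below all 3 Cspg4 arrays (background 4.09%). Against the mean of the other Sdc4+ arrays, which is a mean of the lowest and a high line, the median was -0.20 (all genes 0.10), with 0 members at least 2-fold higher (background 2.83%) and 5 at least 2-fold lower (Ifi27l2a, Ifit1, Mx1, Psmb9 and Tap1; background 4.07%). For Mx1, at background in Myf5SOR+, this is at least 2.16-fold. The mean hides the order: against CD1 Sdc4+ alone the median was 0.74 and against Cspg4- Sdc4+ alone it was -1.14. Ifi27l2a, at 0.90 in Myf5SOR+, 0.61 and 1.19 in CD1 and 4.14, 4.54 and 5.29 in the Cspg4 line, sided with CD1.

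B195AP+ cells had the highest signals of most members. Of 35 members with a value on that array, 21 were higher there than on the 6 other arrays (background 38.5%). Over all genes the median difference from the other Sdc4- arrays was 0.26. Why so many genes were highest on this array was not tested. Against the mean of the Cspg4- and CD1 Sdc4- arrays the median difference was 1.39, with 24 of 35 at least 2-fold higher (background 6.99%) and 2 at least 2-fold lower (Ifit1 and Parp14; background 8.4%). Cmpk2 (3.23) and Ifi44 (2.99) had wide differences upward, as did Rsad2 (3.38) and Usp18 (2.8999), whose spots lay in the streaked region described next. The mean mixes a low and a high line here too: against CD1 Sdc4- alone the median was 2.36 and against Cspg4- Sdc4- alone 0.57. Part of this array, in its first 200 rows and first 130 columns of spots, carries streaks of low signal. Of the members, 12 had their spot in that region, and Rtp4 and Irgm1 had no value because the scanner software marked their spots as outliers. Outside the region 20 of 25 members were at least 2-fold higher (background 6.35%; median 1.52), and inside it 4 of 10 were at least 2-fold higher (background 7.92%) and 2 at least 2-fold lower (background 15%; median 0.94). Both low members, Ifit1 (-1.32) and Parp14 (at least 23.4-fold lower), lay inside. Ifi27l2a, outside the region, was level (0.06), and Psmb9, also outside, was lower (-0.92).

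**Figure D5:**
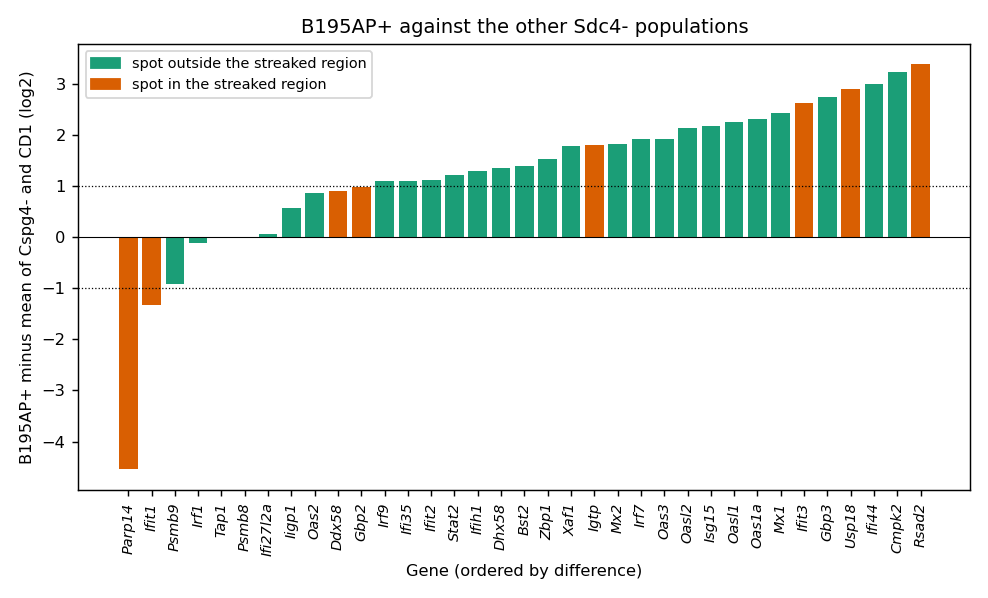
Log2 difference of B195AP+ minus the mean of the Cspg4- and CD1 Sdc4- arrays for 35 interferon response genes, coloured by whether the spot lay in the streaked region of the B195AP+ array; dotted lines mark 2-fold. In all 24 genes are past 2-fold higher, and the 2 past 2-fold lower, Parp14 and Ifit1, have spots in the streaked region.

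The rest of the pathway was read from 6 lists chosen by textbook role, 82 genes of which passed the filter. Limma called 0 of the 82 in either fit. Of 21 listed ligand genes 15 were on the array and 7 passed, all of them dim. Ifnb1, Ifng, Ifne and Ifnk were above background on none of the arrays, while probes of Ifna1 and Ifnab were above it on 6, with highest values of -1.51 and -2.04, and a probe of Ifnl3 on all 7, at up to -1.87. Genes of the interferon-alpha family are near copies, so their probes cannot be assigned with certainty. The 7 passing ligands differed by line by a median of 0.03 in the Sdc4+ and -0.15 in the Sdc4- fraction.

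Receptors and kinases were at like levels in CD1 and Cspg4- cells. The 8 that passed had median line differences of -0.10 and 0.12, and 0 of 8 reached 2-fold in either fraction. Of all 19753 genes in the Sdc4+ fraction, 901 were at least 2-fold higher and 1121 lower. In the Sdc4- fraction it was 1022 and 874 of 19758. With so few genes the count of 0 is near that background, and nothing is read from it. Ifnar1 was at 1.69 to 2.38 over the 7 arrays, and was 0.59 and 0.53 higher in CD1. Tyk2 was at -0.40 to 0.44 and Jak1 at 5.26 to 6.24. Ifngr2 was at 4.50 in Myf5SOR+, 4.53 in B195AP+ and 3.65 to 3.96 elsewhere. For 7 of the 8 the spot lay in the streaked region of the B195AP+ array. Of 11 upstream sensing genes (medians -0.28 and -0.15), 1 was at least 2-fold lower in the Sdc4+ fraction (Tlr7, -1.13) and 0 in the Sdc4- fraction. So 0 were lower by that much in both, against 1.91% of all genes. The 10 transducers and brakes had medians of -0.21 and 0.16, and among them Irf8, a myeloid factor also used by the interferon system, was 1.305 higher in CD1 in the Sdc4- fraction. Of 9 other class I genes 0 reached 2-fold in either fraction, which is likewise near the background over all genes.

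Other interferon-induced genes differed in the same direction as most members, by a smaller median. Of 37 such genes that passed, 8 were at least 2-fold lower in CD1 in both fractions (Ifit3b, Irgm2, Gbp7, Herc6, Samd9l, Parp9, Oas1c and Dtx3l), against 1.91% of all genes, 34 were lower in each fraction, against 11077 of 19753 genes in the Sdc4+ and 10192 of 19758 in the Sdc4- fraction, and for 20 both CD1 arrays were the lowest, against 15.4% of all genes. Their medians were -0.59 in each fraction. Irgm2 was at -0.83 and -0.88 in CD1, 0.56 in Myf5SOR+, 1.08, 1.13 and 1.67 in the Cspg4 line and 1.86 in B195AP+, the line order of the members. Slfn2 went another way, at 2.93, 2.98 and 2.47 on the Sdc4+ arrays and -0.84, 1.26 and 1.38 on the Sdc4- arrays (limma adjusted p = 0.483). The -0.84 was on B195AP+, where the Slfn2 spot lay in the streaked region. Sdc4+ minus Sdc4- was 1.73 within Cspg4- cells and 1.09 within CD1. These lists were also chosen with results of these arrays known and give no independent support.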

How the data were processed

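Labelled RNA from 7 populations was hybridised to Agilent arrays. Per the file headers, the deposited array files are output of Feature Extraction 11.5.1.1 and give a processed green intensity for each spot, corrected for background but not normalized across arrays. The deposited series table holds log2 values, and lumi is named, without a version, in the submitters' processing notes; its centring is unknown, so it served only as an alternative. The files give probe coordinates on mm9; whether a probe lies in a coding exon or a UTR was not looked up, as no annotation of that build was used here.

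The log2 of each processed intensity was taken relative to the 75th percentile of its array. Control spots were dropped and outlier-marked spots set to missing. Repeat spots were averaged. A probe had to be well above background on at least 3 of 7 arrays, and the gene's probe with the highest mean was used. A gene with a missing array was kept and fitted on the others. Current symbols came from RefSeq accessions (27656 of 55681 probes matched, 1711 renamed), and members were matched on the name in the file.

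Sdc4+ and Sdc4- arrays were compared with limma 3.58.1 (R 4.3.3) on 3 group means, and CD1 with Cspg4- by an additive fit of line and Sdc4 on 4 arrays, both across all genes with Benjamini-Hochberg adjustment at 0.05. The code was tested on simulated data. P-values measure the spread between these arrays. Other comparisons have 1 array on a side and no test, and called there means 2-fold. Where every array of a side was dim, "at least" gives the bright side's mean over the dim array's lowest signal well above background (or over the probe's own signal, if greater). Values were printed for up to 3 members per role with the widest range and for the members with the highest and lowest mean. Outside the ligands, pathway genes with printed values were picked from the 5 widest of their list, and not all of those 5 are printed. Members named beyond these, and the pathway genes picked, were chosen after their values were seen. The members and lists were chosen with earlier results of these data known. Alternatives changed the background correction, the normalization, the filter, the probe rule, the streaked region, line as a block and the arrays used. One gene of the pathway lists is not reported here.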

Additional observations from a re-analysis of the deposited data

How the results depend on the processing

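The members' CD1 minus Cspg4- medians kept their direction under all 8 alternatives, from -1.946 to -1.457 in Sdc4+ and from -2.151 to -1.509 in Sdc4- cells. Normexp background correction gave -1.457 and -1.509, and 0.022 for Sdc4+ minus Sdc4- within CD1 and 1.219 for B195AP+. The deposited series table gave -1.684 and -1.705, and 0.9995 for B195AP+, and averaging probes gave -2.151 in Sdc4- cells. The number of genes that limma called between CD1 and Cspg4- was 1935 with normexp, 37 scaled on probes above background on 7 arrays, 52 with the series table, 63 with no filter, 243 with probes above background on 7 arrays and 29 with averaged probes, against 14. That fit has 1 residual degree of freedom, and leaving out an array left none, so it was not run. Cmpk2 was no longer called under quantile normalization (-4.055, limma adjusted p = 0.0515). With line as a fixed block the Sdc4+ minus Sdc4- median was 0.089, as without the Myf5SOR+ and B195AP+ arrays (0.089, chosen after seeing the data), and with a random block it was -0.233, with 5 genes called. Leaving out each array in turn moved this median from -1.343 to 0.049 and the number of genes called from 0 to 1, the Myf5SOR+ median from -1.137 to 0.739 and the B195AP+ median from 0.575 to 2.356. The cause of these changes was not tested beyond what each alternative leaves out. Of 25 members named by rule, 17 changed the sign of their Sdc4+ minus Sdc4- difference in at least 1 alternative, and 0 passed the threshold. By replicate number no paired analysis was possible because every label gives replicate 1; pairing by line is the line block above. Signals near background limit the probes used for Oas3 and Cmpk2 on both CD1 arrays and for Mx1 on the CD1 Sdc4- array, where these probes give only bounds. The second Cmpk2 probe, above background on all 7 arrays, gave smaller differences than the bound.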
